A study of Homo sapiens with 20 samples.

Results

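MHC class I molecules carry short peptides from inside the cell to its surface, where CD8 T cells and natural killer cells read them. A heavy chain encoded by an HLA gene pairs with beta-2-microglobulin, the product of B2M. Proteasomes cut proteins into peptides, the transporter made of TAP1 and TAP2 pumps these into the endoplasmic reticulum, and tapasin, the product of TAPBP, holds the heavy chain next to the transporter while it is loaded. NLRC5 is a transcriptional coactivator of class I genes that works through a promoter-bound complex of RFX, CREB and NF-Y factors, and NF-kB and interferon regulatory factors act on neighbouring promoter elements. The 9 genes described here are the heavy chain genes HLA-B, HLA-C, HLA-E and HLA-F, the light chain gene B2M, the loading genes TAP1, TAP2 and TAPBP, and NLRC5. They were chosen by name, with earlier results of these data known. All 9 passed the level filter that 13787 of the 19775 genes with a probe set of their own passed.

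Transcripts were measured on 20 Affymetrix arrays from the T-ALL1, KOPT-K, HPB-ALL, DND41 and CEM lines, all of human T cell acute lymphoblastic leukaemia, which were given either a control peptide or the NBD (NEMO-binding domain) peptide and collected after 16 h. The NBD peptide keeps the IKKγ subunit of the IkB kinase away from its catalytic subunits, and the study used it against canonical NF-kB activity. There were 2 arrays per line and peptide, and each line stands for a single leukaemia. The labels give the dose as 100 µM in some fields and 100 mM in others, so nothing here rests on it. Nor do they state that the 2 arrays within any group are separate cultures, so p-values measure only the spread between arrays, which may be technical.

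Of 9 T cell markers, 8 or 9 lay above the filter level in every group. Of 5 myeloid markers 1 or 2 did, of 6 fibroblast and epithelial markers 1 or 2, and of 4 B cell markers 2 or 3. The deposited columns are of 2 kinds. The KOPT-K and T-ALL1 columns hold up to 7 decimals, the HPB-ALL, DND41 and CEM columns only 2, so the arrays appear to have been normalized in 2 runs. Levels were therefore tested only between lines whose columns are of the same kind. Actin signal at the 3′ end over that at the 5′ end, which reflects RNA integrity, was on the log2 scale 3.16 and 2.05 on the T-ALL1 control arrays and between 0.73 and 1.81 on the other 18. On the T-ALL1 NBD arrays it was 1.07 and 0.99. In T-ALL1 the peptide and this actin difference thus changed together, and their parts in its NBD effects cannot be told apart.

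NF-kB acts through kappaB elements, and the promoters are shown because the NBD peptide was aimed at NF-kB. RefSeq sequences (GRCh38.p14) were found for 7 of the 9 genes, all but HLA-E and NLRC5. In the 250 bases before the annotated start, 5 of the 7 held a match to the kappaB consensus on either strand, against 5.21% of 35116 such windows in the table. For each motif a gene counts if any of its listed starts has a match, while the percentages are of single windows. The windows below are written 5′ to 3′ on the gene's strand, with the kappaB match in capitals.
B2M, chr15:44711367-44711426, plus strand: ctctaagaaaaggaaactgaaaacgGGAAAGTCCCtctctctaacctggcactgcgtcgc
HLA-B, chr6:31357321-31357381, minus strand: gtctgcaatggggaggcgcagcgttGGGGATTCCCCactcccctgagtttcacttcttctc
HLA-C, chr6:31272230-31272289, minus strand: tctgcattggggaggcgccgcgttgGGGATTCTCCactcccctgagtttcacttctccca
TAP1, chr6:32853742-32853801, minus strand: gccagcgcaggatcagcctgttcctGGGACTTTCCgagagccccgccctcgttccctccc
TAPBP, chr6:33314100-33314159, minus strand: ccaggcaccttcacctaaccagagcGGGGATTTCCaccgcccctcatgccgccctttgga
In HLA-B and HLA-C the capitals begin 177 and 172 bases before the start and stand in nearly the same surroundings, while in TAP1 and TAPBP they begin 72 and 56 bases before it. In B2M, 125 bases before the start, the match lies on the opposite strand, and the HLA-B run holds overlapping matches on both strands. Of 3 further motifs, the core of the interferon-stimulated response element, TTTCNNTTTC, was in B2M, HLA-F, TAP1, TAP2 and TAPBP, 5 of 7 against 3.02% of all windows. CCAAT, the NF-Y box, was in 5 of 7 (32.0% of all windows) and TGACG, the half-site of CREB, in 4 of 7 (21.2%). A match is a description of these letters and not a measured binding site.

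Which array features report these genes sets a limit on every value. The 9 genes have 25 probe sets, of which 22 passed the level filter. Of the 13 probe sets of the 4 HLA genes, 11 carry the suffix _x_at, by which Affymetrix marks probes that also match other sequences. HLA-B (3) and HLA-C (4) have no probe set of another kind, so a signal named HLA-B or HLA-C can hold RNA of another class I locus. HLA-E has 1 probe set without such a suffix, 200904_at, and HLA-F has 1 that did not pass the filter. Each gene is given below by its brightest probe set, which was 209140_x_at for HLA-B, 216526_x_at for HLA-C, 200905_x_at for HLA-E, 221875_x_at for HLA-F, 216231_s_at for B2M, 202307_s_at for TAP1, 204769_s_at for TAP2, 208829_at for TAPBP and 226474_at for NLRC5. Intensities of different probe sets are not compared as amounts of RNA.

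The first question was whether the NBD peptide changed the class I genes. None of the 9 passed the test, on average or in any line, and the average effects (NBD minus control, mean of the 5 lines on the log2 scale) were small, from -0.08 for TAPBP to 0.03 for HLA-B and NLRC5. In limma with Benjamini-Hochberg adjustment, 8.38% of the 13787 genes were called on average, 6.14% lower and 2.24% higher, and 0 of the 9 members, none of them at an unadjusted p under 0.05 either. The 95% intervals of the 9 average effects lay within -0.20 and 0.19. Of the 9 averages, 7 were negative, and their median was -0.05 against -0.01 over all genes tested.

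**Figure D1:**
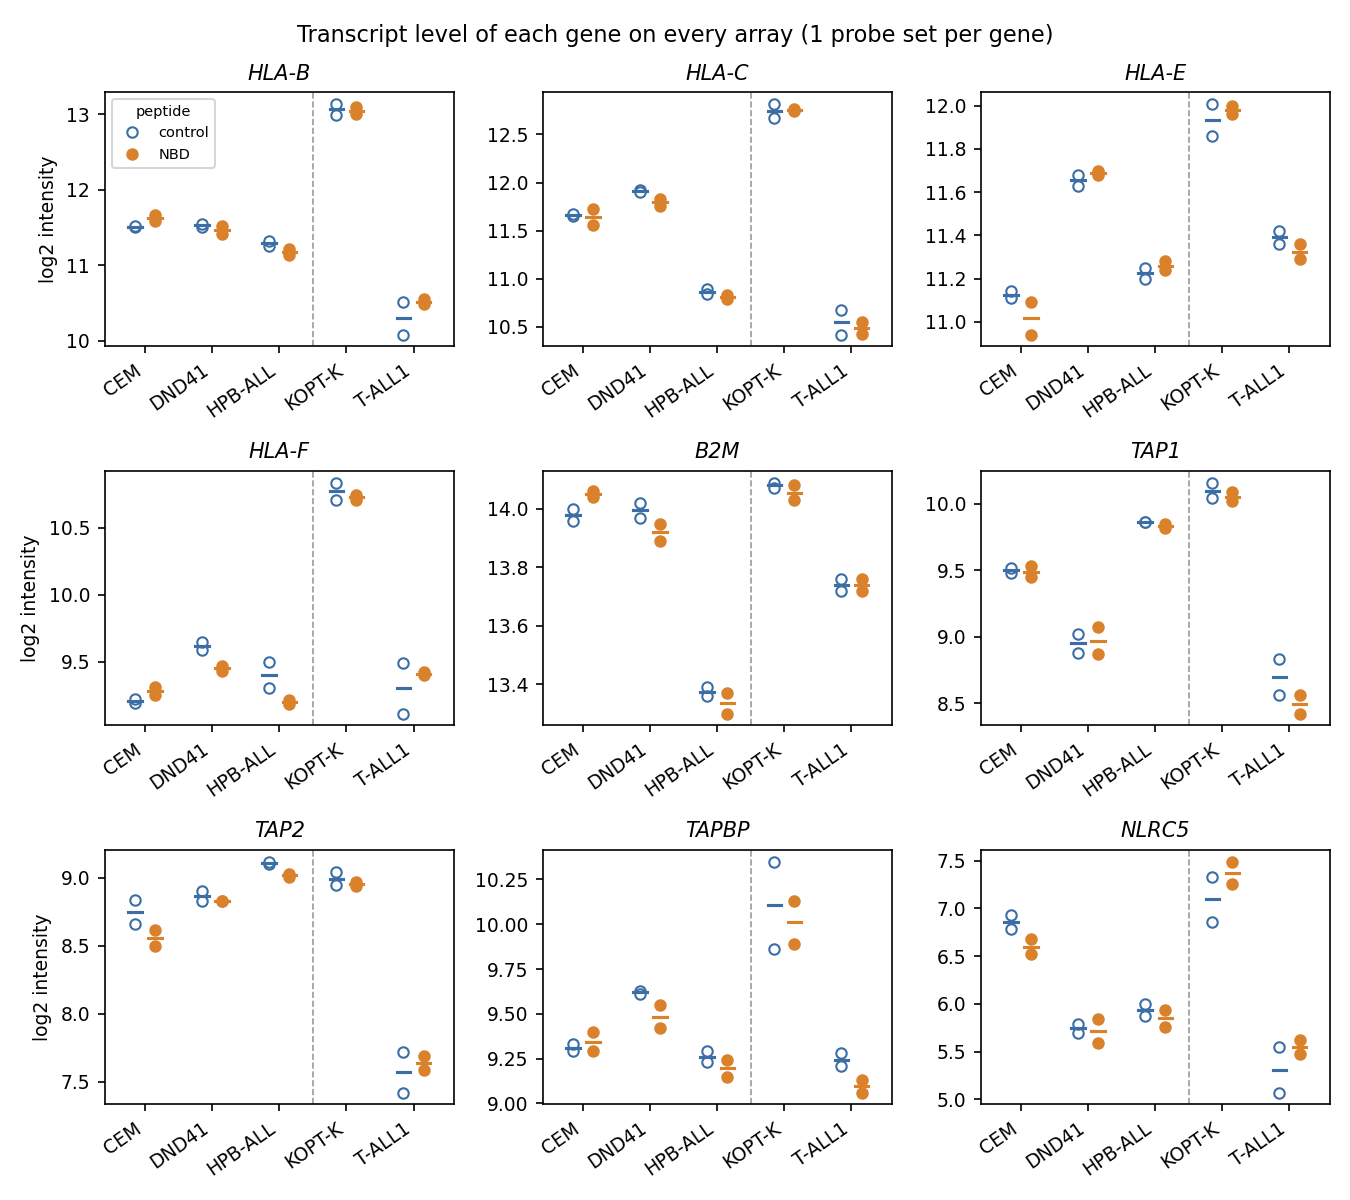
Log2 intensity (y axis) of each of the 9 genes on every array, by cell line (x axis), with open circles for the control peptide, filled circles for NBD and short bars for the mean of 2 arrays. The dashed line parts the 2 kinds of columns, across which levels were not tested; KOPT-K stands above T-ALL1 in every panel, and the peptides of a line lie close together.

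Among the heavy chains, HLA-B presents peptides to CD8 T cells. Its log2 intensity in CEM was 11.50 and 11.52 with control and 11.58 and 11.67 with NBD, and in KOPT-K it was 12.99 and 13.14 with control and 13.09 and 13.00 with NBD. In T-ALL1 it was 10.08 and 10.51 with control and 10.48 and 10.55 with NBD. The peptides overlapped in KOPT-K and T-ALL1 and not in CEM. In DND41 (11.51 and 11.55; with NBD 11.52 and 11.41) they overlapped, and in HPB-ALL (11.26 and 11.32; with NBD 11.22 and 11.14) the NBD arrays were lower. The line effects thus went in both directions and averaged 0.03 ± 0.05 (SE; limma adjusted p = 0.809).

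HLA-C, the main ligand of killer-cell immunoglobulin-like receptors, averaged -0.05 ± 0.04 (SE; limma adjusted p = 0.536). In KOPT-K it was 12.67 and 12.82 with control and 12.76 and 12.74 with NBD. In DND41, where its NBD arrays were lower, it was 11.92 and 11.90 with control and 11.83 and 11.76 with NBD. HLA-E, which shows leader peptides of other class I chains to the receptor NKG2A, averaged -0.01 ± 0.03 (adjusted p = 0.902). In DND41 it was 11.68 and 11.63 with control and 11.70 and 11.68 with NBD. HLA-F, a little-polymorphic class I chain, averaged -0.05 ± 0.05 (adjusted p = 0.62). Its NBD arrays were below both control arrays in DND41 (9.47 and 9.43 against 9.59 and 9.65) and in HPB-ALL (9.18 and 9.21 against 9.30 and 9.50), and above both in CEM (9.25 and 9.31 against 9.19 and 9.22).

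B2M, the light chain that every class I heavy chain needs, differed little between peptides by its brightest probe set. With control and NBD it was 13.76 and 13.72 on both pairs of T-ALL1 arrays, and over all lines its effect was -0.01 ± 0.03 (SE; 95% interval -0.07 to 0.04; limma adjusted p = 0.848). In CEM it was 13.96 and 14.00 with control and 14.04 and 14.06 with NBD, and in DND41 it was 13.97 and 14.02 with control and 13.95 and 13.89 with NBD. The NBD arrays of these lines lay on opposite sides of their controls.

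The transporter genes did not pass either. TAP1 was 9.86 on both control arrays of HPB-ALL and 9.85 and 9.82 with NBD, and 9.48 and 9.52 in CEM with control against 9.45 and 9.53 with NBD. Its largest difference was in T-ALL1, at 8.83 and 8.56 with control and 8.42 and 8.56 with NBD, groups that touch at 8.56. The averages were -0.05 ± 0.04 for TAP1 (SE; limma adjusted p = 0.532) and -0.06 ± 0.04 for TAP2 (0.469). TAPBP averaged -0.08 ± 0.06 (0.444), and its KOPT-K control arrays were 9.86 and 10.35, the widest pair of its brightest probe set.

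NLRC5 had the widest range of line effects by the brightest probe set of each gene, and also the largest standard error (0.17 per line). In CEM it was 6.93 and 6.78 with control and 6.52 and 6.68 with NBD, an effect of -0.26, the lowest of the 45 line effects of the 9 genes. In KOPT-K it was 6.86 and 7.33 with control and 7.26 and 7.49 with NBD, an effect of 0.28, the highest of the 45. The NBD arrays were lower than both controls in CEM and overlapped them in KOPT-K. The average was 0.03 ± 0.08 (SE; limma adjusted p = 0.882), and the F-test of a difference between lines did not pass (adjusted p = 0.49).

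Per line, 0 of the 9 members were called, beside 1.13% of all genes in CEM, 2.47% in DND41, 0.783% in HPB-ALL, 1.28% in KOPT-K and 3.45% in T-ALL1. Of the 45 line effects, 30 were negative, the lowest adjusted p in limma was 0.25, and their 95% intervals reached from -0.62 to 0.64, so a change in a single line is bounded less closely than the average. The F-test of a difference between lines called 1.83% of all genes and 0 of 9 members. T-ALL1 rests on its controls. Without its second control array, limma called HLA-B higher there (0.44, adjusted p = 0.00456), HLA-F higher (0.29, adjusted p = 0.0293) and TAP1 lower (-0.34, adjusted p = 0.0294), and the F-test called HLA-B (adjusted p = 0.0341) and HLA-F (0.0443). The array then left, the first T-ALL1 control, has the actin difference of 3.16, and as a lone sample it is assumed to vary like the other groups. With that difference of each array as a covariate, HLA-F was called lower on average (-0.15, limma adjusted p = 0.0252). Within groups the actin difference varied most between the T-ALL1 control arrays (3.16 and 2.05), so the covariate fit rests mainly on that pair. With the 5 lines as replicates, limma called 0.00% of all genes and 0 members, with 1639 genes at an unadjusted p under 0.05 and no member among them.

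Across the 22 probe sets of the members, none was called in the average effect, where the fit over all 32350 probe sets called 5.14%. The probe sets gave -0.13 to 0.10, with HLA-C 208812_x_at lowest (-0.13, limma adjusted p = 0.131) and B2M 232311_at highest (0.10, 0.629). The line effects of this dim B2M probe set reached from -0.47 in T-ALL1 to 0.65 in DND41, the widest range of the 22. The 3 HLA-B probe sets gave 0.01 to 0.03 and the 3 of TAP2 gave -0.058 to -0.045.

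Some genes that prepare peptides upstream of the class I molecules fell on average. In the list of the immunoproteasome, its activator and the trimming peptidases, 6 of 7 genes were measured alone, of which 4 fell, 0 rose and 2 did not pass, beside the 6.14% of all genes called lower. The list's median was -0.16 against -0.01 over all genes. The list was chosen with earlier results of these data known, so its count and median are descriptions. With the 5 lines as replicates 0 of the 6 were called, beside 0.00% of all genes. Of the 9 T cell markers 4 fell on average as well, CD3D by 0.45, CD7 by 0.29 and CD247 and LCK by 0.25 each (limma adjusted p = 1.5e-06, 0.000772, 0.000263 and 0.0025), and their part in the result was not tested. PSMB8, PSMB9 and PSMB10 encode the catalytic subunits that replace PSMB5, PSMB6 and PSMB7 in immunoproteasomes, and PSME1 encodes a subunit of the PA28 activator cap. ERAP1 and ERAP2, which trim peptides in the endoplasmic reticulum, were at -0.07 and -0.12 (limma adjusted p = 0.453 and 0.364).

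PSMB8 was 10.63 and 10.61 with control and 10.33 and 10.30 with NBD in CEM, and 11.67 and 11.68 with control and 11.50 and 11.44 with NBD in KOPT-K. In HPB-ALL it was 10.07 on both control arrays and 9.80 and 9.84 with NBD, and in DND41 10.10 and 10.13 against a mean of 9.88 ± 0.18 with NBD (SD, n = 2). In these 4 lines each NBD array was below each control array, and in T-ALL1 (9.23 and 9.41; with NBD 9.19 and 9.27) the groups overlapped. The average fell by 0.22 ± 0.04 on the log2 scale (SE, 1.16-fold; limma adjusted p = 0.00277), and no single line passed.

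PSMB9 fell by 0.21 ± 0.04 (SE, 1.15-fold; limma adjusted p = 0.00587), with a negative value in each of the 5 lines. In HPB-ALL it was 10.31 and 10.28 with control and 9.95 and 9.99 with NBD. In KOPT-K, where its arrays overlapped, it was 11.15 and 11.23 with control and 11.18 and 10.97 with NBD. PSMB10 fell by 0.19 ± 0.04 (adjusted p = 0.00879), with 0.00 in DND41 and -0.30 in HPB-ALL at the ends. PSME1 fell by 0.12 ± 0.03 (adjusted p = 0.0265), a call that was lost in 9 of the 20 fits that left out a single array. With the actin difference as a covariate, a fit that rests mainly on the T-ALL1 control pair, PSMB8 stayed called. PSMB9 and PSMB10 then gave -0.13 and -0.15 (limma adjusted p = 0.0588 and 0.0865). Without the HPB-ALL line PSMB9 and PSMB10 also missed the threshold (adjusted p = 0.0655 and 0.0741).

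The constitutive subunits that these replace gave -0.11 for PSMB5, -0.05 for PSMB6 and -0.03 for PSMB7, none called on average (limma adjusted p = 0.0578, 0.362 and 0.493), although the 95% interval of PSMB5, -0.17 to -0.04, leaves out 0. PSMB5 and PSMB7 were called lower in DND41 (-0.32 and -0.26). Of the 4 loading chaperone genes, TAPBPL, a tapasin-related peptide editor, fell by 0.29 ± 0.06 (SE, 1.22-fold; limma adjusted p = 0.00764), with a negative value in each of the 5 lines. Its second probe set gave -0.20, and the call was lost with that probe set (adjusted p = 0.0906) and with the actin covariate (adjusted p = 0.0879). CALR, which encodes calreticulin, gave -0.11 (adjusted p = 0.081), CANX -0.03 and PDIA3 0.03.

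**Figure D2:**
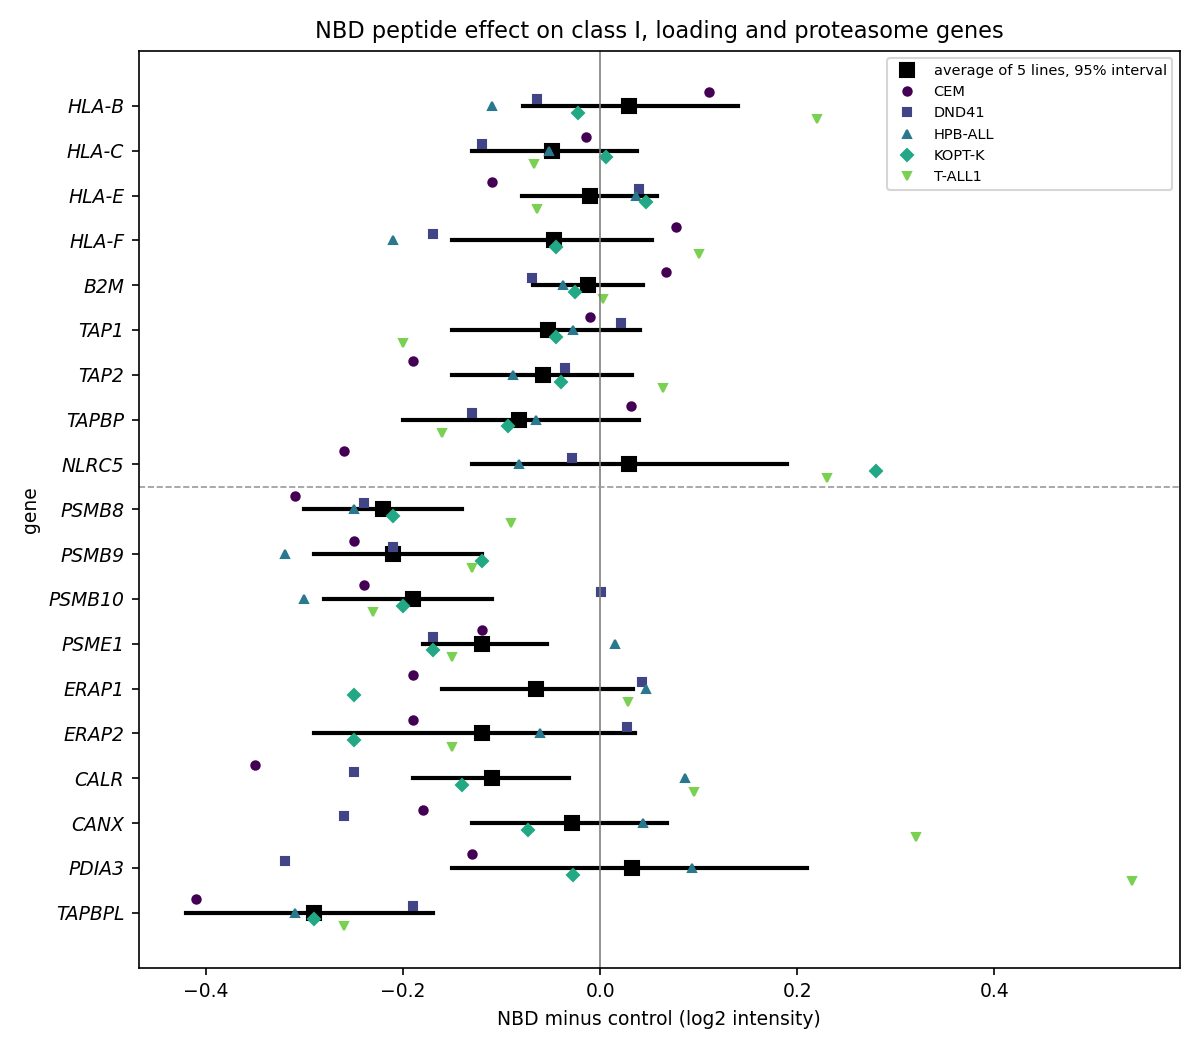
NBD minus control in log2 intensity (x axis) for the 9 class I and loading genes, above the dashed line, and for the genes of the immunoproteasome, trimming and chaperone lists below it. Black squares are the average of 5 lines with its 95% interval, and small symbols are single lines. The intervals of the 9 genes include 0, and of the genes plotted below them those of PSMB8, PSMB9, PSMB10, PSME1, CALR and TAPBPL do not; CALR did not pass after adjustment over all genes.

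Of the 9 measured class I transcription factor genes, 1 fell and 1 rose, beside 6.14% of all genes called lower and 2.24% called higher. RFXANK, a subunit of the RFX complex with which NLRC5 acts, fell by 0.14 ± 0.04 (SE; limma adjusted p = 0.0314), and NFYB, a subunit of NF-Y, rose by 0.11 ± 0.03 (adjusted p = 0.0284). Both calls depended on single arrays: RFXANK was lost in 13 and NFYB in 11 of the 20 fits without 1 array, and NFYB gave 0.03 as the mean of its probe sets. IRF1, an interferon regulatory factor, was at -0.09 (adjusted p = 0.2). Of 9 class II genes only 4 passed the level filter, and 0 of these were called, with averages of -0.16 to -0.03.

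TAP1 and PSMB9 are neighbours that start 488 bases apart and run in opposite directions, for the closest of the 2 starts that the gene table lists for TAP1. PSMB9 passed and TAP1 did not. The pair was chosen for this after its values were seen, so the difference between their effects is given as a description, with no test. The within-array value PSMB9 minus TAP1, of which only the change is read, went from 1.67 and 1.61 to 1.38 and 1.41 in CEM, and from 0.44 and 0.42 to 0.10 and 0.17 in HPB-ALL. In DND41 it went from 1.02 and 1.22 to 0.83 and 0.95. In these lines both NBD arrays were below both controls. KOPT-K gave 1.11 and 1.07 against 1.09 and 0.95, which overlap, and T-ALL1 went the other way, from 0.38 and 0.41 to 0.48 and 0.44. In T-ALL1 the actin difference also changed between the peptides, and its part was not tested. The mean change was -0.15, and it was negative in 4 of 5 lines.

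**Figure D3:**
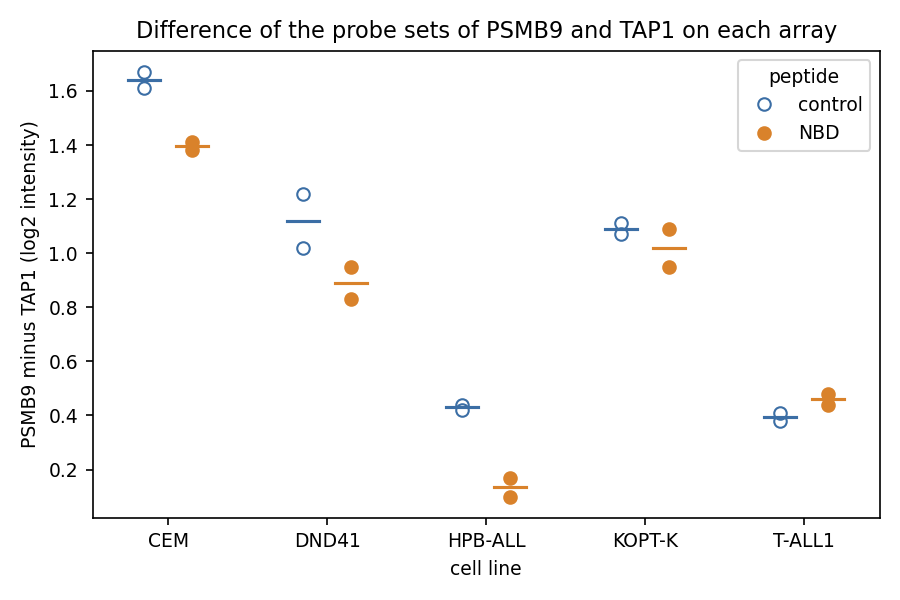
Log2 intensity of PSMB9 minus that of TAP1 (y axis) on each array by cell line (x axis), open for control and filled for NBD, with bars for the mean of 2 arrays. The value is lower with NBD in 4 of 5 lines, by 0.30 in HPB-ALL and 0.07 in KOPT-K, and higher by 0.07 in T-ALL1.

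The second question was how the lines differ in class I expression. The widest contrast was between KOPT-K and T-ALL1: all 9 genes were higher in KOPT-K on the control arrays, where limma called 54.2% of all genes in either direction and 23.6% higher in KOPT-K. The median of the 9 differences was 1.42, against -0.01 over all genes. HLA-B stood furthest apart, by 2.77 ± 0.11 (SE, 6.83-fold; limma adjusted p = 5.93e-11), and its lowest KOPT-K array (12.99) was far above its highest T-ALL1 array (10.55). HLA-C followed at 2.19 ± 0.09 (4.57-fold) and HLA-F at 1.47 ± 0.10 (2.77-fold).

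The loading genes went with the heavy chains. TAP1 and TAP2 were higher by 1.41 ± 0.10 and 1.42 ± 0.09 (SE; 2.65-fold and 2.68-fold; limma adjusted p = 1.92e-08 and 1.23e-08) and TAPBP by 0.86 ± 0.13 (1.81-fold, 4.48e-05). NLRC5 was higher by 1.78 ± 0.17 (3.44-fold, 5.87e-07), with 6.86 and 7.33 in KOPT-K and 5.55 and 5.07 in T-ALL1. The T-ALL1 values of its only probe set lie close to the filter level (log2 of 5), so this fold is approximate. The smallest differences were those of HLA-E, 0.54 ± 0.07 (1.46-fold), and B2M, 0.34 ± 0.06 (1.27-fold; adjusted p = 0.000167), with B2M at 14.09 and 14.07 in KOPT-K and 13.76 and 13.72 in T-ALL1. By the brightest probe sets no array of either line crossed over for any of these genes. The share of all genes for which this holds was not counted, and 54.2% of all genes were called in this contrast.

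The T-ALL1 control arrays are those with the high actin difference. On the NBD arrays, where it was 1.07 and 0.99 in T-ALL1 and 0.97 and 0.73 in KOPT-K, all 9 genes were again called higher in KOPT-K, beside 23.5% of all genes, with HLA-B at 2.53 and B2M at 0.31. All 9 also stayed called whichever single array was left out. Of the 22 probe sets 20 were called higher, beside 21.3% of all probe sets. Those that were not are 200904_at of HLA-E, the one free of the shared-probe suffix (0.12, limma adjusted p = 0.442), and 204770_at of TAP2 (0.32, 0.19). On the control arrays HLA-E was thus called higher by its 2 _x_at probe sets only. By 200904_at the control arrays of the lines overlapped (9.29 and 9.70 in KOPT-K, 9.34 and 9.42 in T-ALL1), and the NBD arrays did not (9.71 and 9.64 against 9.23 and 9.20). The other probe sets of HLA-B and HLA-C gave 1.42 to 2.16, below the 2.77 and 2.19 of the brightest.

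Peptide-preparing genes showed both directions in the same contrast. PSMB8, PSMB9 and PSMB10 were higher in KOPT-K by 2.36, 2.11 and 2.10 (limma adjusted p = 1.27e-11, 1.03e-10 and 1.03e-10), and their constitutive counterparts PSMB5, PSMB6 and PSMB7 were lower, at -1.34, -0.59 and -1.24 on the log2 scale. PSME1 was lower too (-0.55). TAPBPL was higher by 1.70 and ERAP2 by 1.33. Of the 9 class I transcription factor genes 3 were called higher in KOPT-K and 4 lower, beside 54.2% of all genes called in either direction. IRF1 (1.49) and RFXANK (-1.06) were the extremes of that list.

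**Figure D4:**
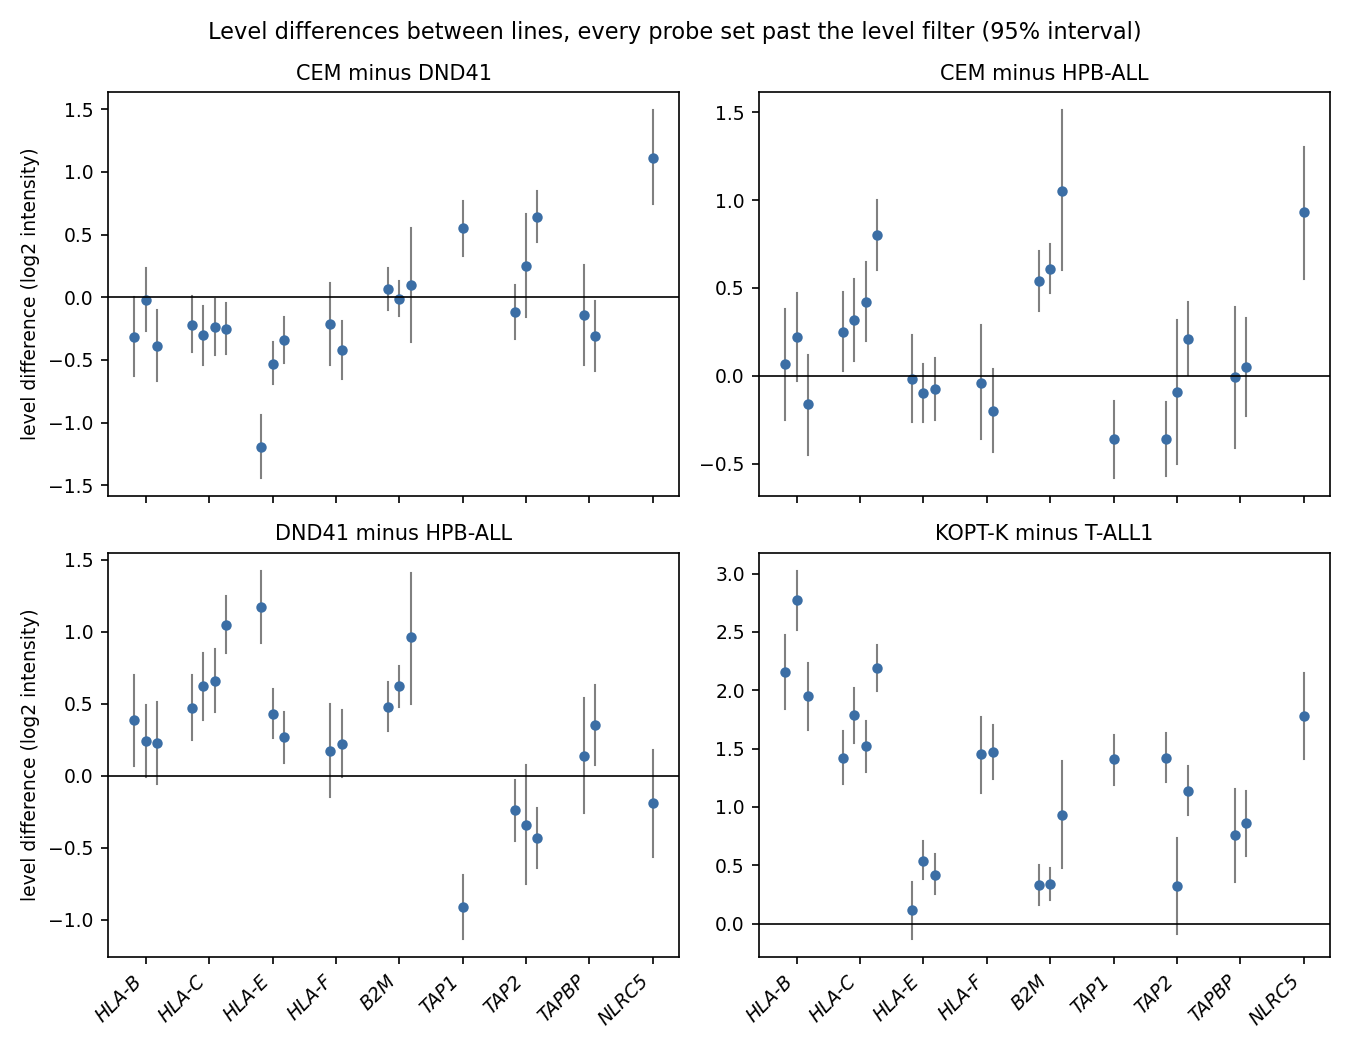
Level differences on control arrays in log2 intensity (y axis) for every probe set of the 9 genes past the level filter (x axis, by gene), one panel per pair of lines tested; bars are 95% intervals. In the KOPT-K minus T-ALL1 panel all points are above 0, while in the other panels points lie on both sides of 0.

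Among CEM, DND41 and HPB-ALL the genes did not move as a block. Between CEM and DND41 limma called 5 of 9 members, beside 42.0% of all genes. NLRC5 (1.11 ± 0.17, SE) and TAP1 (0.55 ± 0.10) were higher in CEM, and HLA-E (-0.53 ± 0.07), HLA-F (-0.42 ± 0.10) and HLA-C (-0.25 ± 0.09) were higher in DND41. HLA-B and B2M gave -0.02 and -0.01, with 95% intervals of -0.26 to 0.22 and -0.14 to 0.11. For HLA-B this holds for the brightest probe set, since 211911_x_at was called lower in CEM (-0.39, limma adjusted p = 0.0357 over all probe sets). The HLA-C call was lost without any single control array of CEM or DND41, and those of HLA-C and HLA-F were lost on the NBD arrays, where TAP2 was called lower in CEM (-0.27, limma adjusted p = 0.0311).

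Between CEM and HPB-ALL 5 of 9 were called, beside 49.0% of all genes. B2M (0.61 ± 0.06, SE), HLA-C (0.80 ± 0.09) and NLRC5 (0.93 ± 0.17) were higher in CEM, and TAP1 and TAP2 (both -0.36) in HPB-ALL. The direction for TAP2 turned with the probe set, since 225973_at gave 0.21 (adjusted p = 0.095 over all probe sets). The TAP2 call was lost without the first CEM control array (limma adjusted p = 0.0726). Among CEM, DND41 and HPB-ALL, HPB-ALL had the lowest B2M values, 13.39 and 13.36 on its control arrays, together with TAP1 at 9.86 on both. These groups do not overlap with those of CEM.

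Between DND41 and HPB-ALL 6 of 9 were called, beside 47.5% of all genes. HLA-C (1.05 ± 0.09, SE), B2M (0.62 ± 0.06), HLA-E (0.43 ± 0.07) and TAPBP (0.35 ± 0.13) were higher in DND41, and TAP1 (-0.91 ± 0.10) and TAP2 (-0.24 ± 0.09) in HPB-ALL. TAP2 missed the threshold in 16 of the 20 fits without 1 array, and TAPBP without any single control array of DND41 or HPB-ALL. Both also missed it on the NBD arrays (limma adjusted p = 0.116 and 0.0728).

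Probe sets of 1 gene disagreed in places. For TAP2 between CEM and DND41, 204769_s_at gave -0.12 and 225973_at gave 0.64 (limma adjusted p = 0.00012 over all probe sets), so no direction can be given for it there or between CEM and HPB-ALL. HLA-E was lower in CEM than in DND41 by all 3 of its probe sets, from -0.34 to -1.19, the last by 200904_at. HLA-C was higher in CEM than in HPB-ALL by 0.25 to 0.80 over its 4 probe sets, of which 3 passed.

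Set side by side without a test across the 2 kinds of columns, by the brightest probe sets KOPT-K had the highest control mean of 8 of the 9 genes, and HPB-ALL that of TAP2 (9.11, with KOPT-K at 8.99). Both ranks depend on the probe set: 225973_at put TAP2 highest in CEM (8.96), followed by HPB-ALL (8.75) and KOPT-K (8.52), and 200904_at put HLA-E highest in DND41 (9.90), above KOPT-K (9.50). For HLA-B the order was KOPT-K at 13.07, DND41 at 11.53, CEM at 11.51, HPB-ALL at 11.29 and T-ALL1 at 10.29, in which DND41, CEM and HPB-ALL did not differ beyond the test's threshold on the control arrays. On the NBD arrays HLA-B was called higher than in HPB-ALL in CEM (0.44, limma adjusted p = 0.00445) and in DND41 (0.28, adjusted p = 0.0495). Between CEM and HPB-ALL the direction turned with the probe set. By 208729_x_at the NBD arrays were at 10.32 and 10.31 in CEM and 10.17 and 10.05 in HPB-ALL. By 211911_x_at they were at 10.08 and 10.08 in CEM and 10.20 and 10.25 in HPB-ALL. For HLA-C it was 12.74, 11.91, 11.66, 10.86 and 10.55 in the same order of lines, although its other 3 probe sets placed T-ALL1 above HPB-ALL. For B2M it was KOPT-K at 14.08, DND41 at 13.99, CEM at 13.98, T-ALL1 at 13.74 and HPB-ALL at 13.37, with no detectable difference between DND41 and CEM.

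The remaining orders differ from gene to gene. For TAP1 it was KOPT-K at 10.10, HPB-ALL at 9.86, CEM at 9.50, DND41 at 8.95 and T-ALL1 at 8.69. For NLRC5 it was KOPT-K at 7.10, CEM at 6.86, HPB-ALL at 5.93, DND41 at 5.74 and T-ALL1 at 5.31, with HPB-ALL and DND41 not separated. By 200905_x_at HLA-E was highest in KOPT-K (11.93), followed by DND41 (11.65), T-ALL1 (11.39), HPB-ALL (11.22) and CEM (11.12), the last 2 not separated on the control arrays and called lower in CEM on the NBD arrays (-0.24, limma adjusted p = 0.011). By 221875_x_at HLA-F was lowest in CEM (9.20, with T-ALL1 at 9.30), and by 204806_x_at it was lowest in T-ALL1 (8.86, with CEM at 9.26).

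Over the 20 arrays, each gene centred within its kind of columns, HLA-B correlated with HLA-F at r = 0.96 and with HLA-C at 0.94, and B2M with TAP1 at 0.00 and TAP2 at 0.15. These are descriptions: the arrays come from only 5 lines, and the HLA probe sets may share probes. The genes most like NLRC5 by the same measure were AMIGO2 (0.974), TMEM156 (0.972), FZD6 (0.968), PSMB9 (0.967) and ITGA4 (0.966). Those most like B2M were VAV3 (0.986), SFMBT1 (0.985), SIGIRR (0.983), CD69 (0.983) and SHISA5 (0.982).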

How the data were processed

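Per the submitters' processing notes, the authors used RMA, with no version given; for each probe set and array, a linear intensity was deposited, which was taken to log2 here with no pseudocount. Per the labels' protocols, 20 ng of total RNA went through a repeated amplification. Precision is limited by how few arrays there are. Of 54675 probe sets, the platform annotation gives 41097 a single symbol, 1801 several and 11777 none. A gene was taken by its brightest single-gene probe set and entered the test where it reached the median of all values (31.96, log2 of 5) on 2 arrays. limma 3.58.1 in R 4.3.3 (lmFit, eBayes; Benjamini-Hochberg at 0.05) fitted 1 mean per group (10 residual and 3.42 prior degrees of freedom). Figures were drawn with matplotlib 3.10.9 in Python 3.11.15. PSME2 was not analysed here.

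Named were all 9 members, the pathway genes past the threshold on average (at most 4 per list and direction, else the 2 largest) and the 5 genes most like NLRC5 and B2M; others were named after their values were seen. The members and lists were chosen with earlier results of these data known. Same-numbered control and NBD arrays did not deviate together (correlations of -0.281 to 0.143 by line), so they were not paired. The average effect, the effect in CEM and lines as replicates were tested on simulated data with the same shift in every line. The F-test, the level contrasts and the alternative fits were not.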

Additional observations from a re-analysis of the deposited data

How the results depend on the processing

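The alternatives were other probe sets per gene, no level filter, median centring, quantile normalization within each kind of columns, a trended robust prior, the replicate block, each array, line or kind of columns left out, all probe sets as the family, and the actin covariate; the NBD arrays for levels were added after seeing the data. Counts of called members stayed within 1.5 times in 431 recomputed counts and moved in 4. These were 1 member on average with the actin covariate, 1 probe set with the trended robust prior and, with arrays left out, 0 to 3 members in T-ALL1 and 0 to 2 in the F-test. With the replicate block 0 members were called on average, and in limma PSMB8 stayed called (adjusted p = 0.0256) while PSMB9 and PSMB10 (both 0.0584), TAPBPL (0.0644), PSME1 (0.121), RFXANK (0.131) and NFYB (0.138) missed.

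Average effects of the members that changed sign did so at sizes not called. With the actin covariate HLA-B was -0.055, B2M 0.002, TAP1 0.027 and TAP2 0.018. B2M was 0.032 as the mean of probe sets, 0.098 with probe sets without shared probes and 0.002 without DND41. HLA-E was 0.012 and 0.005 with the same probe set choices, 0.014 without CEM and 0.003 without T-ALL1. HLA-B was -0.020 without T-ALL1 and -0.019 in the 2-decimal columns alone, where NLRC5 was -0.12; NLRC5 was -0.033 without KOPT-K and -0.022 without T-ALL1. In KOPT-K and T-ALL1 alone HLA-F was 0.030 and TAP2 0.012. Without single arrays HLA-B reached from -0.015 to 0.072, HLA-E from -0.026 to 0.005 and NLRC5 from -0.018 to 0.077.

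Between CEM and DND41, B2M was 0.049 (mean of probe sets), 0.095 (without shared probes) and 0.12 (NBD arrays), and -0.037 to 0.011 without single arrays. HLA-B was 0.008 (quantile), 0.16 (NBD arrays) and -0.041 to 0.000 without single arrays. TAP2 was 0.24 and 0.64 with these probe set choices. Between CEM and HPB-ALL, HLA-F was 0.088 on NBD arrays, TAP2 0.21 without shared probes and TAPBP -0.047 as the mean of probe sets. The causes of the sign changes were not tested. HLA-F has no value with probe sets without shared probes. HLA-B, HLA-C and TAP1 have only probe sets with an _x_at or _s_at suffix and kept their brightest one in that setting.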

Other observations

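ERAP2, a peptidase that trims peptides for class I loading, differed widely between lines. Its log2 intensity on control arrays was 9.34 and 9.48 in CEM, 6.68 and 6.59 in DND41 and 8.83 and 8.71 in HPB-ALL. DND41 was lowest, below CEM by 2.78 ± 0.17 (SE, limma adjusted p = 6.3e-09) and at -2.13 against HPB-ALL (adjusted p = 9.22e-08). HLA-DMA, a class II peptide exchange chain, was at 6.79 and 7.07 in KOPT-K and at 3.46 and 3.86 in T-ALL1, a difference of 3.27 (limma adjusted p = 4.41e-09) in which the T-ALL1 values lie below the level filter.

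CD79A, a B cell receptor chain in the B cell marker list and singled out after its values were seen, stood at 11.45 and 11.46 in DND41 with control, against 5.86 to 6.71 in CEM and HPB-ALL. With NBD it was 10.22 and 10.12 in DND41, a fall by 1.28 on the log2 scale (limma adjusted p = 0.00538). The difference of this effect between lines did not pass the F-test (adjusted p = 0.0539). The B cell markers CD22 and PAX5 were at -0.004 and -0.26 in DND41 and did not pass (adjusted p = 0.993 and 0.648). Of the 9 T cell markers 3 also fell in DND41, CD7 by 0.78, CD3D by 0.72 and CD247 by 0.34 (limma adjusted p = 0.000821, 0.000199 and 0.0196). Over all genes 240 of 13787 were called lower there. CD3D was also called lower in HPB-ALL (-0.41), KOPT-K (-0.40) and T-ALL1 (-0.53), and CD247 in HPB-ALL (-0.41).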
